A study of Mus musculus with 60 samples.

Results

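Rgs13, Dpm3, Cd44, Aspg, Pik3r6, Ptgr1, Esr1, Ecel1, Arsj and Scn7a are 10 genes picked because their cortical signal was much higher after fluoxetine in a few inbred mouse strains and not in the others. They were chosen by the size of the difference between fluoxetine and water within strains. Those differences are therefore given below as a description, and nothing is read from a test of them. The 10 genes are part of 18193 genes that had a probe set with 1 gene name, of which 11886 were bright enough to be tested, all 10 among them. A gene was tested if at least 6 arrays reached log2 4. Rgs13 met this through fluoxetine arrays alone, and Dpm3 and Ecel1 did mainly so, so for these 3 passing the filter already required high fluoxetine values. Cortex RNA of male mice from 30 inbred strains, aged 10 to 11 weeks, was measured on 60 Affymetrix expression arrays. The fluoxetine group took 18 mg/kg per day orally for 21 days, and the water group took 0 mg/kg. Each array held RNA pooled from 3 mice, with 1 array per strain and treatment, so a value for 1 strain and treatment has no replicate. A strain difference below is the fluoxetine array minus the water array of that strain, in log2 units, where 1 unit is a doubling.

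Fluoxetine blocks the transporter that returns serotonin to the nerve terminal, which prolongs serotonin signalling. The 10 genes belong to separate pathways. Rgs13 speeds the switching off of G protein alpha subunits and is best known in B cells and mast cells, and Pik3r6 is a regulatory subunit that links phosphoinositide 3-kinase gamma to G protein beta-gamma subunits. Cd44 is the cell surface receptor for hyaluronan, carried in brain mainly by glia and immune cells, Scn7a is an atypical sodium channel tied to the sensing of extracellular sodium, and Esr1 is the nuclear estrogen receptor alpha. The other 5 are enzymes or enzyme subunits: Dpm3 anchors the dolichol phosphate mannose synthase that supplies mannose for glycosylation, Aspg is an asparaginase, Ptgr1 reduces and inactivates eicosanoids, Ecel1 is a neuronal peptidase of the neprilysin family, and Arsj is a member of the arylsulfatase family. In bulk cortex RNA, fewer cells of a type and less RNA per cell cannot be told apart.

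The annotated start regions of Rgs13, Dpm3 and Cd44 are shown because these genes gave the 3 largest single-strain differences of the 10. Each window runs from 250 bases before to 50 bases after the start annotated by RefSeq on GRCm38.p6, 5′ to 3′ on the gene's strand, and capitals mark the 50 bases from the start on.
Rgs13, chr1:144177323-144177622, minus strand: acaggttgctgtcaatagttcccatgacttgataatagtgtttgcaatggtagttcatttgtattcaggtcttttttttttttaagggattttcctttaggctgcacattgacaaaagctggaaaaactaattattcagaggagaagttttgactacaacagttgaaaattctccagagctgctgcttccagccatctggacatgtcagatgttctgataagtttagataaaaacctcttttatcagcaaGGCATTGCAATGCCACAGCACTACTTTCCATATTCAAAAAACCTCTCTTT
Dpm3, chr3:89266211-89266510, plus strand: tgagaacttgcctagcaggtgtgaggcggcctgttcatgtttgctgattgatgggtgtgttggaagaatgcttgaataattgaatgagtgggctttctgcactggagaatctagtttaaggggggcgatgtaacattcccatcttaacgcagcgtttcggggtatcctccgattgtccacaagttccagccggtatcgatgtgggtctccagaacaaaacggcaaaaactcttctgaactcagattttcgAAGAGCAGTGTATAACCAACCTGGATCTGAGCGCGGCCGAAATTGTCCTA
Cd44, chr2:102901616-102901915, minus strand: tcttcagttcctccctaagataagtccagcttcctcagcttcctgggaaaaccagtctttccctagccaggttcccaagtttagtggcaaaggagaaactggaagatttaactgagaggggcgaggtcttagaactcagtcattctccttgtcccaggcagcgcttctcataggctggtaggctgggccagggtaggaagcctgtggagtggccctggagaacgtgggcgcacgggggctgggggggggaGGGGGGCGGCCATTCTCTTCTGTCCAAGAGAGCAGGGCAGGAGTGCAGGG
The Rgs13 window was 36.7% G and C, the Dpm3 window 48% and the Cd44 window 58%, against a median of 52.7% over 32851 windows of the same length. RefSeq windows were found for 9 of the 10 genes, with 2 for Esr1, which made 10 windows. Both strands of each window were searched for the cyclic AMP response element (CRE), spelled TGACGTCA. The search was repeated for the shorter CRE core, spelled TGACG, which lies within the full element and is counted there too. The AP-1 motif, spelled TGANTCA, was also searched. So were an E-box, spelled CACGTG, and the TATA box, spelled TATAAA. None of the 10 windows held any of these 5, which says only that these letters are not in these windows. Among all 32851 windows, 1.79% held the CRE, 20.8% its core, 7.81% AP-1, 7.15% the E-box and 13.6% the TATA box.

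The higher values fell in the same strains across the 10 genes. All 10 were higher on the fluoxetine array by at least 1 log2 unit in P/J, DBA/2J and I/LnJ, against 2.25%, 1.27% and 1.18% of all tested genes in those strains. In C58/J 9 of the 10 passed this mark, with Scn7a just under it at 0.90, against 1.21% of tested genes. BTBRT T(+) tf/J had 8 such genes against 0.353% of tested genes, C57BR/cdJ had 6 against 0.597%, and MA/MyJ had 6 against 0.303%. Fewer genes passed in SM/J with 5 (0.463% of tested genes), CBA/J with 4 (0.294%), C57BL/6J with 3 (0.126%) and C57BLKS/J with 1 (0.109%). In the other 19 strains none of the 10 genes was higher by 1, where 0.0421% to 0.429% of tested genes were, so the share of all genes overlapped between these and the other 11 strains. Since the genes were chosen for this pattern, the shares of all tested genes are given for scale and nothing is read from the contrast.

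**Figure D1:**
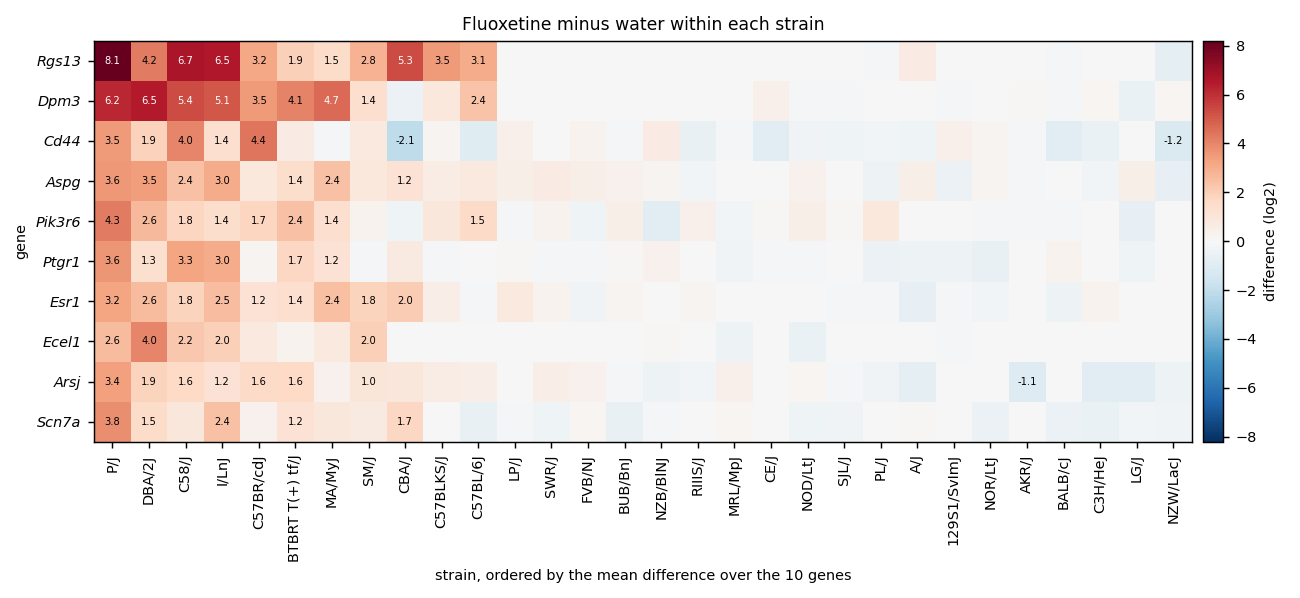
Difference between the fluoxetine and the water array (log2, colour scale) for each of the 10 genes (down) in each of 30 strains (across), with strains ordered by the mean difference over the 10 genes. Numbers are printed where the difference was 1 or more in size, and 72 of 300 gene and strain pairs were higher by at least 1 while 3 were lower by at least 1.

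The mean difference over the 10 genes was 4.23 in P/J, 3.01 in DBA/2J, 3.00 in C58/J and 2.86 in I/LnJ. It lay between 1.16 and 1.78 in C57BR/cdJ, BTBRT T(+) tf/J, MA/MyJ and SM/J, and between 0.65 and 0.91 in CBA/J, C57BLKS/J and C57BL/6J. The 19 remaining strains had means of −0.32 to 0.15. The difference was at least 1 in the opposite direction in 3 gene and strain pairs, which were Cd44 in CBA/J, Cd44 in NZW/LacJ and Arsj in AKR/J. Each of the 10 genes was higher by at least 1 in 5 or more strains, a mark that 0.437% of all tested genes passed, and the counts ran from 5 strains for Cd44, Ecel1 and Scn7a to 11 for Rgs13. With strain as a block, limma called 0.0168% of tested genes higher and 0.0421% lower at an adjusted p under 0.05, and 0 of the 10 genes were among them. The genes were chosen on this contrast, so nothing is read from either comparison with all tested genes.

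The arrays of 2 strains stood apart in these genes. The fluoxetine array of P/J was the highest of the 30 fluoxetine arrays for 7 of the 10 genes, against 8.44% of all tested genes. The other 3 peaked in DBA/2J (Dpm3 and Ecel1) and C58/J (Cd44). Since the genes were chosen for high fluoxetine values in a few strains, nothing is read from the P/J count. The water array of CBA/J was the highest of the 30 water arrays for 7 of the 10 genes, against 4.11% of all tested genes. Those 7 were Dpm3, Cd44, Aspg, Pik3r6, Ptgr1, Ecel1 and Arsj. Both arrays of CBA/J were therefore high for several genes, and its within-strain difference was small or negative for Dpm3, Cd44, Pik3r6 and Ecel1. Over 30 strains the mean differences given below run from 0.30 for Scn7a to 1.55 for Rgs13. Without CBA/J they ran from 0.26 for Scn7a to 1.42 for Rgs13, and without P/J from 0.18 for Scn7a to 1.32 for Rgs13.

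Rgs13 had 1 probe set (1442263_at), and no water array carried a clear signal of it. On the 30 fluoxetine arrays it ranged from 2.07 to 10.21 with a median of 2.07, against 2.07 to 2.85 with a median of 2.07 on the 30 water arrays. The value 2.07 is the lowest that the authors' background correction gave on any array, and 17 fluoxetine and 22 water arrays sat within 0.01 log2 units of it. Values at this floor have no order, so a difference against it has no exact size. In all, 10 fluoxetine arrays and 0 water arrays lay above log2 4, the level used here for a clear signal. The lowest of these 10 was BTBRT T(+) tf/J at 4.0, and the highest array under the mark was the fluoxetine array of MA/MyJ at 3.56.

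By strain, Rgs13 reached 10.21 on fluoxetine against 2.07 on water in P/J, 8.74 against 2.07 in C58/J, 8.61 against 2.07 in I/LnJ and 7.55 against 2.20 in CBA/J. DBA/2J had 6.60 on fluoxetine and 2.36 on water, C57BLKS/J 5.56 and 2.07, C57BR/cdJ 5.54 and 2.36, and C57BL/6J 5.26 and 2.20. SM/J followed with 4.91 on fluoxetine and 2.07 on water. In 11 strains the fluoxetine array lay above every water array, and in the other 19 no array of either treatment exceeded 2.85. The mean difference over 30 strains was 1.55 (SD 2.45, n = 30) with a median of 0.00, so the mean came from the minority of strains. CBA/J and C57BLKS/J had large Rgs13 differences of 5.35 and 3.49 while 4 and 1 of the 10 genes passed a difference of 1 there.

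Pik3r6, the other G protein linked signalling gene, had a clear signal on all 60 arrays in both of its probe sets. In 1443816_s_at, the brighter, the fluoxetine arrays ranged from 5.04 to 9.66 with a median of 5.73, against 5.04 to 7.77 with a median of 5.63 on water. P/J had 9.66 on fluoxetine and 5.37 on water, DBA/2J 8.93 and 6.28, BTBRT T(+) tf/J 8.19 and 5.77, and C57BR/cdJ 7.82 and 6.09. The groups overlapped apart from 4 fluoxetine arrays above the highest water array, that of CBA/J. Its mean difference was 0.60 (SD 1.13, n = 30) with a median of 0.20, and 8 strains were higher by at least 1.

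**Figure D2:**
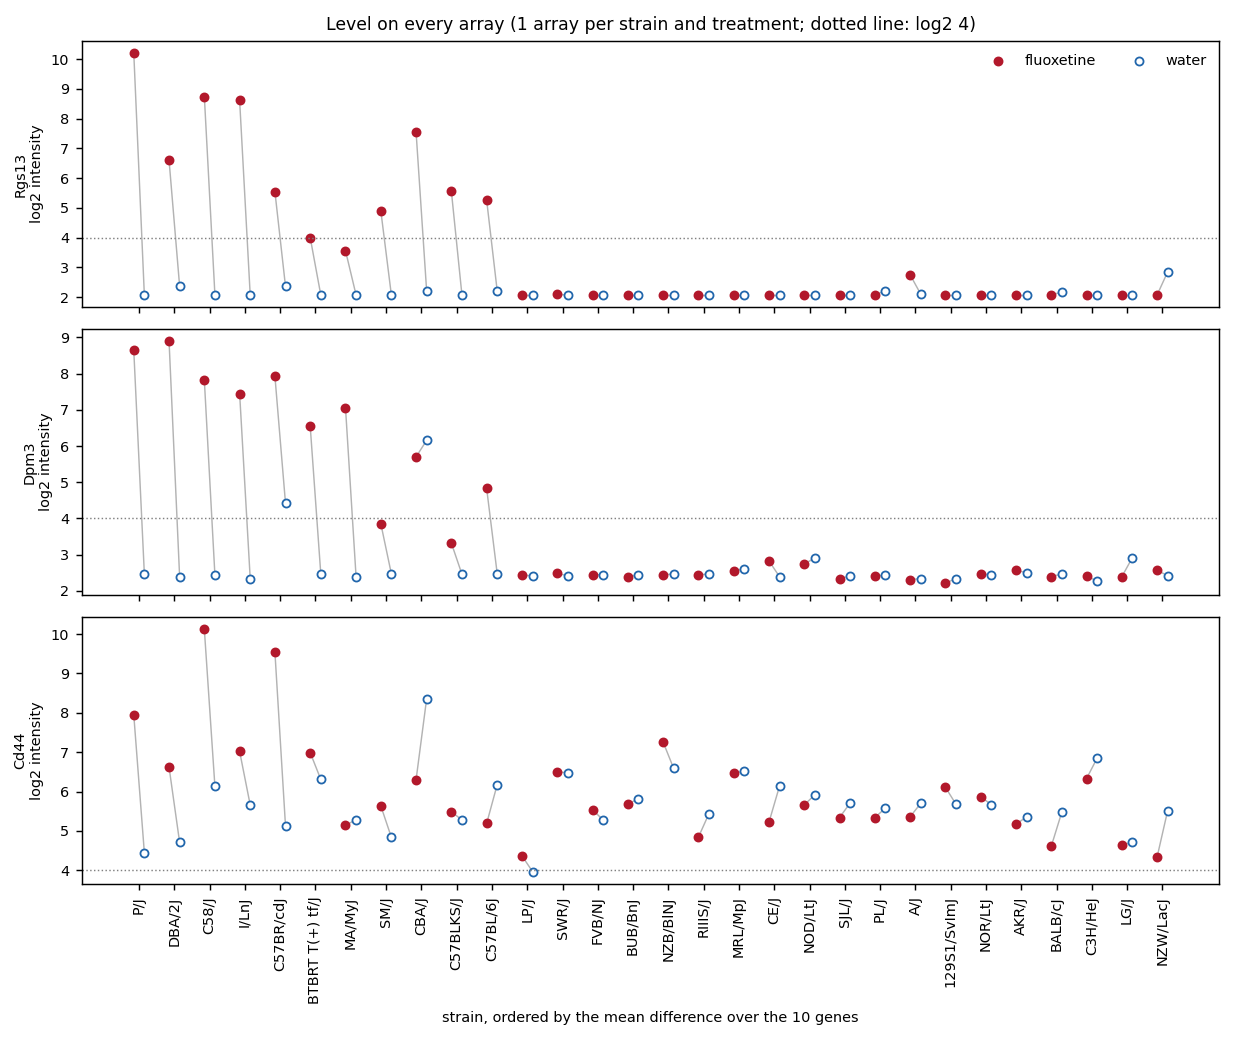
Log2 intensity of Rgs13, Dpm3 and Cd44 (top to bottom) on the fluoxetine array (filled red) and the water array (open blue) of each of 30 strains, joined by a line, with a dotted line at log2 4. Water arrays of Rgs13 stay at or below 2.85, whereas Dpm3 has water arrays at 6.16 and 4.42 and Cd44 has signal in nearly all strains.

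Cd44, the hyaluronan receptor, differed from Rgs13 in that it was measured in nearly all cortices and its difference ran in both directions. In 1434376_at, its brightest probe set, the fluoxetine arrays ranged from 4.34 to 10.12 with a median of 5.65, against 3.97 to 8.36 with a median of 5.67 on water, and 59 arrays lay above log2 4. C58/J had 10.12 on fluoxetine and 6.13 on water, C57BR/cdJ 9.54 and 5.13, P/J 7.95 and 4.45, I/LnJ 7.02 and 5.66, and DBA/2J 6.62 and 4.71. CBA/J had 6.30 on fluoxetine and 8.36 on water, and NZW/LacJ had 4.34 and 5.52. The groups overlapped over most of their range, with 2 fluoxetine arrays above all water arrays. Its mean difference was 0.33 (SD 1.45, n = 30), the median −0.07, and 14 strains were higher and 16 lower. Without C57BR/cdJ the mean was 0.19.

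Scn7a, the sodium sensing channel, was also measured on all 60 arrays in 1436043_at. Fluoxetine arrays ranged from 4.64 to 9.04 with a median of 5.35, against 4.75 to 6.68 with a median of 5.35 on water. P/J stood highest with 9.04 on fluoxetine and 5.25 on water, I/LnJ had 7.76 and 5.37, and CBA/J 7.38 and 5.67. DBA/2J had 7.38 on fluoxetine and 5.85 on water, and BTBRT T(+) tf/J 6.46 and 5.25. Together these were the 5 strains higher by at least 1. Over strains the difference averaged 0.30 (SD 0.99, n = 30) with a median of −0.02, and without P/J the mean was 0.18.

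Esr1, the estrogen receptor, ranged on 1460591_at from 3.37 to 8.78 on fluoxetine with a median of 4.91, against 3.39 to 6.21 on water with a median of 4.86. P/J had 8.78 on fluoxetine and 5.54 on water, C58/J 8.04 and 6.21, DBA/2J 7.49 and 4.89, and I/LnJ 7.42 and 4.89. CBA/J had 6.94 on fluoxetine and 4.89 on water, MA/MyJ 6.68 and 4.24, C57BR/cdJ 6.42 and 5.25, BTBRT T(+) tf/J 6.20 and 4.83, and SM/J 5.39 and 3.58. These 9 strains were higher by at least 1, and 7 fluoxetine arrays exceeded all water arrays. The mean difference was 0.64 (SD 1.07, n = 30) with a median of 0.11.

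Among the enzymes, Dpm3 (1452729_at) was, like Rgs13, near its lowest values in most strains. It ranged from 2.21 to 8.90 on fluoxetine with a median of 2.56, against 2.27 to 6.16 on water with a median of 2.45. Above log2 4 lay 9 fluoxetine arrays and 2 water arrays, those of CBA/J at 6.16 and C57BR/cdJ at 4.42. Just under the mark were the fluoxetine arrays of SM/J at 3.86 and C57BLKS/J at 3.32. By contrast, Dpm1 and Dpm2, genes of the same pathway, were bright, with mean log2 values of 10.29 and 9.97. Whether 1452729_at reports the level of Dpm3 was not tested, so its low values do not show that the gene is silent.

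DBA/2J had the highest Dpm3 value with 8.90 on fluoxetine and 2.38 on water, P/J had 8.65 and 2.47, C57BR/cdJ 7.93 and 4.42, C58/J 7.82 and 2.43, and I/LnJ 7.45 and 2.34. MA/MyJ had 7.06 on fluoxetine and 2.39 on water, BTBRT T(+) tf/J 6.55 and 2.47, CBA/J 5.70 and 6.16, and C57BL/6J 4.83 and 2.47. CBA/J was thus the strain in which both treatments carried a clear signal without a higher fluoxetine array. In the 19 strains with no difference of 1 in any of the 10 genes, Dpm3 stayed between 2.21 and 2.83 on fluoxetine and between 2.27 and 2.92 on water. The mean difference was 1.31 (SD 2.23, n = 30) with a median of 0.04, and 7 fluoxetine arrays lay above all water arrays.

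Aspg, the asparaginase, was the gene with the highest median difference, 0.46, and it was higher in 23 of 30 strains. Its probe set 1435036_at ranged from 4.02 to 8.03 on fluoxetine with a median of 4.75, against 3.93 to 5.12 on water with a median of 4.47. P/J had 8.03 on fluoxetine and 4.47 on water, DBA/2J 7.55 and 4.11, I/LnJ 7.18 and 4.13, MA/MyJ 6.90 and 4.53, and C58/J 6.43 and 4.02. In all 10 fluoxetine arrays exceeded the highest water array. The mean difference was 0.74 (SD 1.14, n = 30), with 7 strains higher by at least 1.

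Ptgr1, the eicosanoid reductase, was nearly flat on water. On 1417777_at it ranged from 4.01 to 8.47 on fluoxetine with a median of 4.76, against 4.47 to 5.36 on water with a median of 4.76. P/J had 8.47 on fluoxetine and 4.82 on water, C58/J 7.73 and 4.47, I/LnJ 7.54 and 4.52, BTBRT T(+) tf/J 6.48 and 4.76, and DBA/2J 6.06 and 4.76. With MA/MyJ at 5.95 and 4.76 they made 6 strains higher by at least 1, and 7 fluoxetine arrays lay above all water arrays. The difference averaged 0.42 (SD 1.11, n = 30) with a median of 0.00.

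Ecel1, the neuronal peptidase, showed no clear signal on most arrays. Its single probe set (1422586_at) stood at 2.98, its most common value, on 43 of 60 arrays, and 7 fluoxetine arrays and 1 water array lay above log2 4. DBA/2J had 7.0 on fluoxetine and 2.98 on water, P/J 5.57 and 2.98, C58/J 5.20 and 2.98, I/LnJ 4.94 and 2.98, and SM/J 4.93 and 2.98. CBA/J had 5.19 on fluoxetine and 5.14 on water, the 1 water array above the mark. Ecel1 differed by 0.45 on average (SD 1.04, n = 30) with a median of 0.00.

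Arsj, the arylsulfatase family gene, varied widely between strains on either treatment. Its probe set 1457827_at ranged from 3.42 to 8.27 on fluoxetine with a median of 5.75, against 3.33 to 6.89 on water with a median of 5.63. P/J had 8.27 on fluoxetine and 4.89 on water, C58/J 7.90 and 6.30, CBA/J 7.83 and 6.89, and I/LnJ 7.28 and 6.07. DBA/2J, at 5.70 on fluoxetine and 3.85 on water, had a difference of 1.85 yet did not leave the water range. On average Arsj differed by 0.36 (SD 0.98, n = 30) with a median of 0.07, and 4 fluoxetine arrays exceeded all water arrays. AKR/J ran the other way with 4.10 on fluoxetine and 5.18 on water.

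A limma F-test of the strain terms in the same fit gave an adjusted p under 0.05 for 88.3% of all tested genes and for 2 of the 10, Arsj (adjusted p = 0.00022) and Esr1 (adjusted p = 0.00364). The level of a strain includes the fluoxetine values that chose the genes, and the error term of the test is the spread of the within-strain differences, so nothing is read from this count. The levels themselves are described below for Arsj and Esr1, on both arrays of a strain.

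For Arsj, both arrays of NOD/LtJ (3.46 on fluoxetine, 3.33 on water) and of NOR/LtJ (3.42 and 3.44) were the lowest of their treatment groups. The highest water arrays were those of CBA/J (6.89), 129S1/SvImJ (6.57) and A/J (6.34), and the difference within 129S1/SvImJ was −0.04. For Esr1, low values were shared by both arrays of FVB/NJ (3.37 on fluoxetine, 3.67 on water), BUB/BnJ (3.59 and 3.39) and SJL/J (3.97 and 4.07). SM/J, at 3.58, was the second lowest water array of Esr1 but reached 5.39 on fluoxetine. Of these Esr1 values, all but 4.07 and 5.39 lie under log2 4, the level used here for a clear signal. Another Esr1 probe set, 1435663_at, did not repeat the low values on both arrays. It had 4.21 on fluoxetine and 4.23 on water in FVB/NJ, 4.21 and 3.52 in BUB/BnJ, and 3.71 and 4.21 in SJL/J. On that probe set NOR/LtJ was low on both arrays (3.77 and 3.78).

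**Figure D3:**
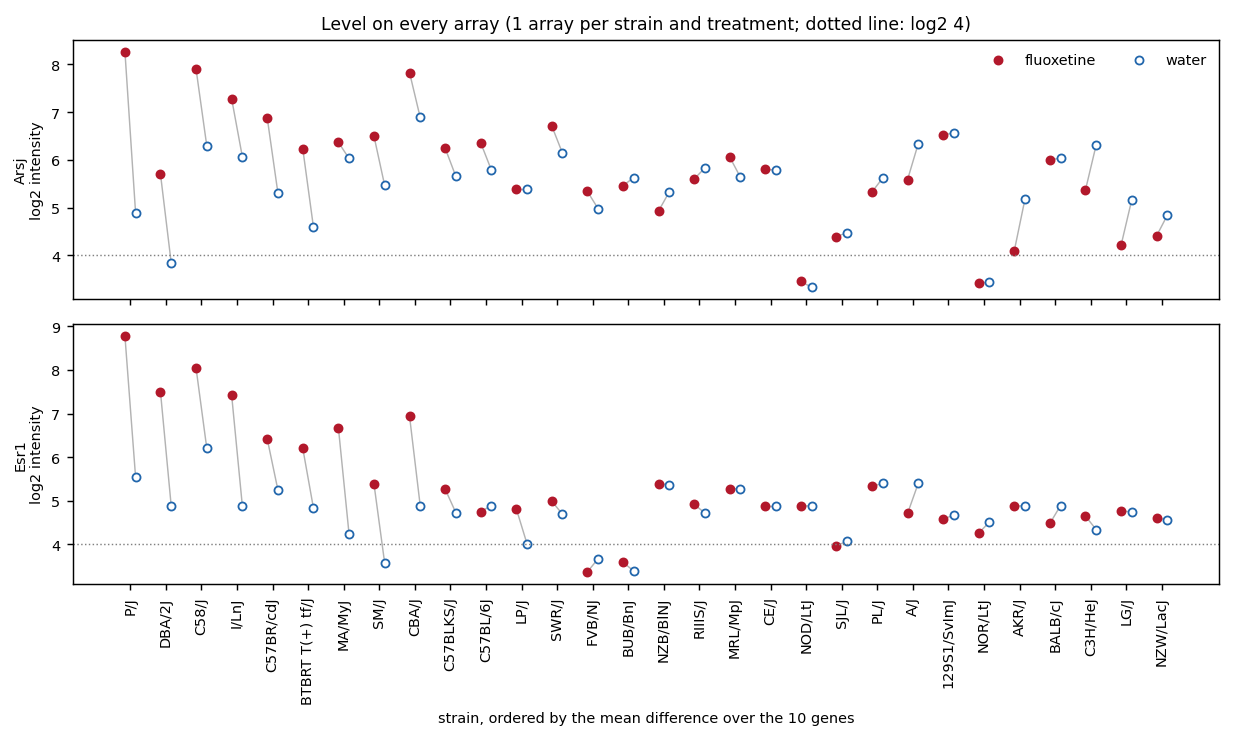
Log2 intensity of Arsj (top) and Esr1 (bottom) on the fluoxetine array (filled red) and the water array (open blue) of each of 30 strains, joined by a line, in the strain order of the mean difference over the 10 genes. Arsj lies under 3.5 on both arrays of NOD/LtJ and NOR/LtJ, and Esr1 under 4 on both arrays of FVB/NJ and BUB/BnJ. Esr1 is shown on its brightest probe set, and 1435663_at did not have both arrays of FVB/NJ or BUB/BnJ under 4.

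On water alone the order of strains mostly differed between genes apart from CBA/J. C57BR/cdJ was also among the highest for Dpm3 (4.42) and Scn7a. The same held for Ecel1 (3.51) and Rgs13 (2.36), but both values lie under log2 4, so no order is read from them. For Cd44 the highest water arrays were CBA/J (8.36), C3H/HeJ (6.85) and NZB/BlNJ (6.59), and the lowest LP/J (3.97), P/J (4.45) and DBA/2J (4.71). For Pik3r6 the highest were CBA/J (7.77), CE/J (6.48) and DBA/2J (6.28), and the lowest NZW/LacJ (5.04), SWR/J (5.21) and NOD/LtJ (5.21). Scn7a was highest in C57BL/6J (6.68), C57BR/cdJ (6.10) and NOR/LtJ (5.88), and lowest in LP/J (4.75), SJL/J (4.97) and CE/J (4.99). Steps between neighbours of this order rest on 1 array each and have no error of their own. Ptgr1 and Aspg spanned little on water, with Ptgr1 between C58/J (4.47) and CBA/J (5.36), and Aspg between A/J (3.93) and CBA/J (5.12), where NZW/LacJ stood at the same 5.12.

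The 10 genes were covered by 18 probe sets, with 6 genes on 1 probe set each and 4 genes on several. Cd44 had 4, of which 1423760_at gave 13 arrays above log2 4 and a mean difference of 0.53, against 0.33 in 1434376_at, and its difference was highest in C58/J at 4.97 and lowest in CBA/J at −2.43. Both probe sets were higher by at least 1 in the same 5 strains, and their differences had a Pearson correlation of 0.943 over 30 strains (Spearman 0.61, and Pearson 0.883 without the 2 farthest strains). The other Cd44 probe sets had 0 arrays above log2 4: 1443265_at stood within 0.01 log2 units of the floor on 59 arrays and at 2.11 on the other, and 1452483_a_at was higher by at least 1 in C58/J alone, by 1.71. Within a gene, probe sets can target different transcript ends, so they are repeat readings of the same RNA pools and not replicates.

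Both Pik3r6 probe sets were higher by at least 1 in the same 8 strains, with a Pearson correlation of 0.914 over 30 strains (Spearman 0.79). Esr1 was less uniform: 1435663_at was higher by at least 1 in 3 of the 9 strains of 1460591_at, with a mean difference of 0.27 and a correlation of 0.805, and 1421244_at stood at the floor on all 60 arrays. For Scn7a, 1436044_at was higher in 8 strains, among them the 5 of 1436043_at, with a correlation of 0.915. The third Scn7a probe set, 1427495_at, had 1 array above log2 4 and correlations of 0.664 and 0.583 with the other probe sets, which were −0.02 and 0.12 without the 2 farthest strains. Rgs13, Dpm3, Aspg, Ptgr1, Ecel1 and Arsj each rest on 1 probe set, with no other reading on the array.

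**Figure D4:**
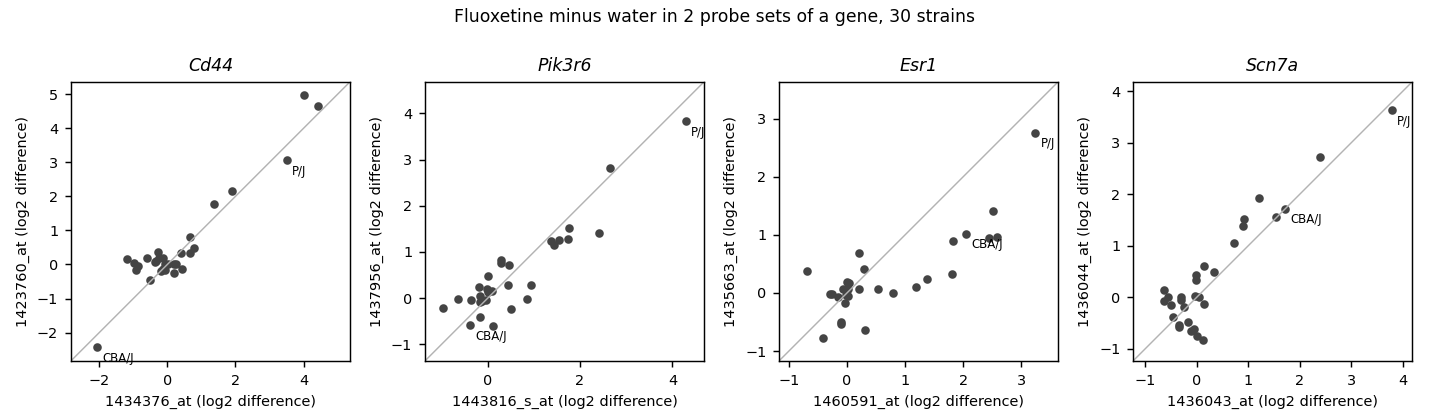
Difference between fluoxetine and water (log2) in 30 strains for a pair of probe sets of Cd44, Pik3r6, Esr1 and Scn7a, with the line of equal differences in grey and the points of P/J and CBA/J named. Points follow the line in Cd44, Pik3r6 and Scn7a (Pearson 0.914 to 0.943), while Esr1 lies below it, with smaller differences on 1435663_at.

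Between genes, the 45 pairs had Pearson correlations of the within-strain difference from 0.502 (Cd44 with Scn7a) to 0.906 (Dpm3 with Aspg), with a median of 0.793 over 30 strains. The genes were chosen for high values in the same kind of strain and share every array, so these correlations are a description. Without DBA/2J and P/J, the strains farthest from the median, the pairs had a median of 0.697. Within the 11 strains in which at least 1 gene passed a difference of 1 the median was 0.607, and within the other 19 strains it was 0.027, with 25 of 45 pairs above 0. The strains were split by these same differences, so nothing is read from that contrast. On the water arrays the pairs had a median of 0.201, and 0.085 without CBA/J. The highest pair was Dpm3 with Ecel1 at 0.939, and 0.723 without CBA/J, both genes near their lowest values on most water arrays.

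Other genes had a similar strain pattern. Against the mean difference of the 10 genes, the 5 tested genes with the highest Pearson correlation over 30 strains were Trnp1, a nuclear protein of neural progenitors (0.955), Medag, a gene of adipocyte differentiation (0.952), Cyb5r1, a cytochrome b5 reductase (0.941), Rgs2, another RGS family gene (0.936), and Nptx2, a secreted neuronal pentraxin (0.934). Without DBA/2J and P/J these correlations were 0.878 to 0.929. Nptx2 had 11.89 on fluoxetine and 8.75 on water in P/J, and a mean difference of 0.55 (SD 0.86, n = 30), with 24 of 30 strains higher and a limma adjusted p of 0.0874. Rgs2 had 14.18 on fluoxetine and 12.38 on water in P/J, and a mean difference of 0.27 (SD 0.48, n = 30), with a limma adjusted p of 0.129. None of the 5 passed the adjusted threshold, and Trnp1 differed by 0.24, Medag by 0.31 and Cyb5r1 by 0.35 on average.

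**Figure D5:**
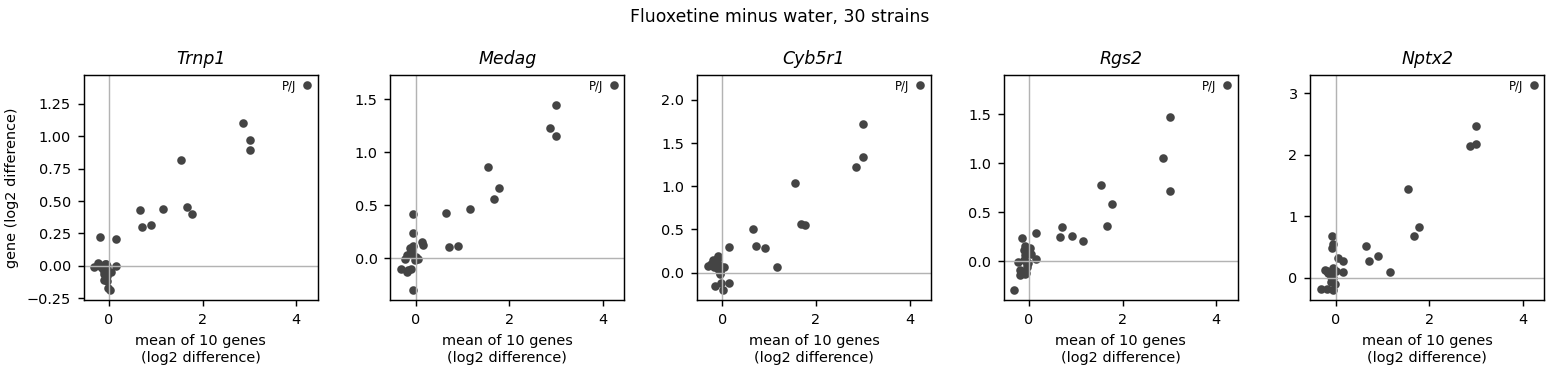
Difference between fluoxetine and water (log2) of Trnp1, Medag, Cyb5r1, Rgs2 and Nptx2 (vertical) against the mean difference of the 10 genes (horizontal), 1 point per strain, 30 strains, with P/J named. Most strains cluster near 0 on both axes, and the difference of P/J is the largest in each panel, from 1.40 for Trnp1 to 3.14 for Nptx2.

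Taken gene by gene, Rgs13 was most like Pid1 (0.907), the collagen gene Col4a2 (0.902), Trnp1 (0.894), Rgs2 (0.881) and the PACAP receptor gene Adcyap1r1 (0.864). Dpm3 was most like Efcab6 (0.945), Medag (0.938), Trnp1 (0.923), the B cell adaptor gene Blnk (0.922) and the neuronal calcium binding protein gene Necab2 (0.916). Cd44 had another set, with Pdlim4 (0.883), the cytokine gene Tgfb1 (0.867), Pmepa1 (0.856), the stress gene Gadd45g (0.855) and the oncostatin M receptor gene Osmr (0.854). Within the 19 strains without a difference of 1 in the 10 genes, the correlations of the Cd44 set with Cd44 ranged from −0.311 (Tgfb1) to 0.354 (Gadd45g). Within the 11 strains with such a difference they ranged from 0.851 (Gadd45g) to 0.944 (Osmr). The strains were split by the differences of the 10 genes, Cd44 among them. The Cd44 set was picked for its high correlation with Cd44 over all strains. Both choices favour this contrast, so nothing is read from it.

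The other genes of each pathway were counted from lists drawn up by function. Of 253 genes on 28 lists that were tested, limma called 0 higher and 0 lower between fluoxetine and water at an adjusted p under 0.05. Of all tested genes it called 0.0168% higher and 0.0421% lower. At those shares lists of this size would rarely hold a called gene, so nothing is read from the counts of 0 here and below. An unadjusted limma p under 0.05 was reached by 65 of the 253, and by 15.3% of all tested genes. Among the other RGS family genes 0 of 16 passed, with a median difference of −0.02 against −0.0029 for all tested genes. Rgs17 averaged 0.09 (limma adjusted p = 0.0836, higher in 24 of 30 strains) and Rgs2 0.27. Of the dolichol phosphate mannose pathway 0 of 21 passed, with Dpm1, the catalytic subunit that Dpm3 tethers to the membrane, at −0.06 (limma adjusted p = 0.121) and the mannosyltransferase gene Alg1 at −0.10 (limma adjusted p = 0.102). In the hyaluronan and CD44 list 0 of 10 passed, and the link protein gene Hapln1 averaged 0.14 (limma adjusted p = 0.181).

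Class I phosphoinositide 3-kinase genes gave 0 of 7, with Pik3r3 at 0.05 and Pik3cd at −0.06, while the catalytic partner of Pik3r6, Pik3cg, was too dim to be tested. Eicosanoid genes gave 0 of 14, where the cyclooxygenase gene Ptgs2 averaged 0.27 and reached 3.10 in P/J, and the prostaglandin dehydrogenase gene Hpgd averaged 0.20. Estrogen signalling genes gave 0 of 8, neprilysin family peptidases 0 of 3, sulfatases 0 of 11, sodium channels 0 of 8, and asparagine and aspartate metabolism 0 of 10. At an unadjusted limma p under 0.05, which 15.3% of all tested genes passed, there were 7 RGS, 2 dolichol pathway, 1 hyaluronan, 1 kinase, 0 eicosanoid and 1 estrogen signalling genes, and 1 peptidase, 3 sulfatase, 3 sodium channel and 1 asparagine and aspartate gene. Aspa, the aspartoacylase gene of oligodendrocytes, averaged −0.22 (limma adjusted p = 0.0904, lower in 22 of 30 strains), Esrrg, an orphan receptor gene, −0.11 (limma adjusted p = 0.169) and Ece1, an endothelin converting peptidase gene, 0.05 (limma adjusted p = 0.323). The heparan sulfatase gene Sulf1 averaged 0.30 (limma adjusted p = 0.131) and was highest in C58/J at 1.89. Of the sodium channels, 7 of 8 had a mean below 0, as had 6306 of all 11886 tested genes. Scn1a averaged −0.12 (limma adjusted p = 0.157), opposite in sign to the mean of Scn7a, though not past the threshold.

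Lists of neuronal activity and glial reaction were set beside the 10 genes strain by strain. The mean of 21 late activity-induced genes correlated with the mean difference of the 10 genes at 0.868 over 30 strains (0.764 without DBA/2J and P/J). Of these genes 18 of 21 had a mean above 0, as had 5580 of all 11886 tested genes, and the median was 0.12. Inhba, an activin subunit gene of that list, averaged 0.53 (limma adjusted p = 0.0764) and reached 2.77 in P/J. Of that list 0 of 21 passed the test, as did 0 of 20 immediate early genes, whose mean had a correlation of 0.245. For 13 reactive astrocyte genes the correlation was 0.701 (0.673 without DBA/2J and P/J), and 0 of 13 passed the test. Of these genes 13 of 13 had a mean above 0, with a median of 0.14. Gfap, the astrocyte filament gene, averaged 0.43 (limma adjusted p = 0.142) and reached 3.17 in C58/J. At an unadjusted limma p under 0.05, against 15.3% of all tested genes, there were 12 late, 7 immediate early and 3 reactive astrocyte genes. Other lists had correlations between the late and the reactive astrocyte values in size. They were −0.848 for 8 sodium channels, 0.773 for 3 hippocampus genes, 0.759 for 16 RGS genes and 0.719 for 14 eicosanoid genes. Without DBA/2J and P/J they were −0.724, 0.635, 0.542 and 0.651. The lists are not separate, since Ptgs2 is on both the eicosanoid and the late list. The part of these lists in the values of the 10 genes was not tested.

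Markers of other cell types and regions differed in some of the strains concerned and not in the same way. In P/J the mean difference of a list was −2.41 for 4 olfactory bulb and neuroblast genes, −0.85 for 10 oligodendrocyte genes, −0.79 for 2 choroid plexus genes, −0.71 for 7 thalamus genes, 0.63 for 10 microglia genes and 0.61 for 3 hippocampus genes. Single genes carried some of these, such as Doc2g at −5.40 in the olfactory bulb list and Calb2 at −4.06 in the thalamus list, where Prkcd stood at 0.79. In DBA/2J, where all 10 genes were also higher by at least 1, the means were −0.19 for olfactory bulb, −0.12 for oligodendrocyte, 0.09 for choroid plexus, −0.03 for thalamus, 0.48 for microglia and 0.24 for hippocampus genes. In I/LnJ the olfactory bulb mean was 2.08 and the thalamus mean 0.65, both opposite to P/J. Single genes carried much of these 2 means as well, with Cdhr1 at 5.63 in the olfactory bulb list and Calb2 at 3.09 in the thalamus list. Oligodendrocyte genes stood at −0.34, choroid plexus at −0.54, microglia at 0.14 and hippocampus genes at 0.01. C58/J had −0.08 for olfactory bulb, −0.60 for oligodendrocyte, −1.53 for choroid plexus, −0.16 for thalamus, 0.12 for microglia and 0.33 for hippocampus genes. Further lists also differed. In I/LnJ the mean was 0.86 for 2 hypothalamus and amygdala genes and 0.82 for 10 meninges and fibroblast genes, against −0.51 and −0.24 in P/J. The meninges and fibroblast mean was 0.70 in C58/J and −0.09 in DBA/2J. For 3 blood leukocyte genes it was 0.53 in DBA/2J and 0.37 in P/J, but 0.17 in C58/J and 0.03 in I/LnJ. The summed intensity of 10 oligodendrocyte markers ranged from 23896.3 to 58793.6 on fluoxetine and from 34162.3 to 56492.5 on water, with the lowest in the fluoxetine array of P/J. The 10 microglia markers summed to 9145.9 to 23223.9 on fluoxetine and 9228.8 to 14571.3 on water, and P/J held the highest sum of each treatment. Blood leukocyte markers were mostly dim, with 3 of 14 bright enough to be tested, and the B cell genes Cd79a, Cd79b and Ms4a1 and the mast cell genes Fcer1a and Cpa3 not among them.

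The labelled tissue was checked on upper-layer cortical neuron markers, whose summed intensity ranged from 15095.8 to 19220.9 on fluoxetine and from 14027.1 to 18998.9 on water. Bright genes such as Lmo4 and Rasgrf2 (mean log2 12.75 and 12.28) weigh most in this sum, so it can miss dissection differences. Deep-layer sums ranged from 6867.0 to 11646.0 on fluoxetine and from 7621.4 to 11966.8 on water. The lowest of these was the fluoxetine array of P/J. Thalamus sums were lowest of their treatment in that array (2039.7) and highest in the water array of P/J (4728.1). RNA quality was read from the difference between the 3′ and 5′ probe sets of Actb and Gapdh. Its change between fluoxetine and water had a correlation of −0.078 (Actb) and 0.225 (Gapdh) with the mean difference of the 10 genes over 30 strains. Median array intensity lay between 39.06 and 43.14, and 26.39% to 28.09% of probe sets per array sat at the floor. The part of tissue composition and of RNA quality in the values of the 10 genes was not tested, and a strain's response cannot be told apart from the chance of its pool or array, since each was measured once.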

How the data were processed

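Per the labels, the deposited values come from Affymetrix arrays of cortex RNA pooled from 3 mice per strain and treatment. The authors deposited an intensity for each probe set on each array. GCRMA is named as the tool in the submitters' processing notes, and its version was not stated there. It removes background estimated from probe composition, scales arrays to each other and merges the probes of a set, which compresses values near its floor. The linear scale was read from the values, which were taken to log2 without a pseudocount. The number of arrays limits the precision.

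Of 45101 probe sets, 34945 had 1 gene name in the platform annotation, 932 several, 9160 none, and 64 were controls. The 10 genes were matched by symbol over probe sets with 1 name, and none with several names was used. Across genes, the probe set of highest mean log2 value stood for a gene. Fluoxetine and water were compared over 11886 genes with limma 3.58.1 (lmFit, eBayes, R 4.3.3), strain as a block, two-sided, Benjamini-Hochberg at 0.05. Strain levels were tested with limma's F-test in the same fit. The pairing of arrays comes from the strain label, since both arrays of a strain are of the same inbred line. The p-values measure the spread between pooled arrays, and no array batch is known. On simulated data with 11886 genes the fit recovered 90 of 100 genes shifted by 0.25 and 100 of 100 shifted by 1, with 12 false calls. Each simulated shift was the same in all strains, with independent noise. The simulation therefore does not show how well the fit finds differences limited to a few strains. Python 3.11.15 was used for the other steps.

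The genes and lists were chosen with earlier results of these data known. Besides the 10 genes, the text names the 5 tested genes of highest Pearson correlation with Rgs13, Dpm3, Cd44 or the mean of the 10, and from the lists (13 of pathways, 15 of cell types and regions) genes among the 2 with the smallest limma p. Untested list genes (Pik3cg and leukocyte markers) were added after the values were seen. So were Doc2g, Calb2 and Prkcd, which were not among those 2 of their lists. The extra values of Gfap, Ptgs2, Inhba, Sulf1 and Cdhr1 by strain were also added then. RefSeq sequences are from GRCm38.p6. The files name no genome build.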

Additional observations from a re-analysis of the deposited data

How the results depend on the processing

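The limma count of 7 genes differing between fluoxetine and water was 0 with no replicate block, 1 with no filter on low values and 0 when all probe sets of a gene were averaged, and 6 to 9 under the other 6 settings. Leaving out 1 strain at a time gave 0 (without C57BLKS/J or C58/J) to 21 (without RIIIS/J). None of the 10 genes was called in the fit with strain as block, from which nothing is read because they were chosen on this contrast. List genes called stayed at 0 under 9 settings and were 0 to 1 when 1 strain was left out, the 1 being Sst without P/J. Genes differing between strains numbered 10500, with 9891 to 10697 under other settings and 10315 to 10645 with 1 strain left out. These strain omissions, and setting values under log2 4 to 4, were chosen after seeing the data.

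The median of the 10 mean differences was 0.53, and 0.43 (without P/J) to 0.56 (without NZB/BlNJ) when 1 strain was left out. With the median over strains in place of the mean it was 0.02, with Cd44 at −0.07 and Scn7a at −0.02, opposite in sign to their means, and Rgs13 and Ecel1 at 0.00. Signal over background limits Rgs13, Dpm3 and Ecel1, whose water values lie at or near the lowest level measured. With log2 of the intensity plus 16 the mean was 0.91 for Rgs13, 0.83 for Dpm3 and 0.25 for Ecel1, and with values under log2 4 set to 4 it was 0.90, 0.88 and 0.27, against 1.55, 1.31 and 0.45. The mean of Esr1 was 0.30 when its probe sets were averaged, against 0.64. Having 1 array for each strain and treatment gives no error for a single strain.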
